A study of Mus musculus with 6 samples.

Results

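Transcripts of 10 cytokine genes were compared between CD73+ and CD73- AD-MSCs: the IL-6 family ligands Il6, Lif and Il11, the colony-stimulating factors Csf1, Csf2 and Csf3, the IL-1 antagonist Il1rn, the alarmin Il33 with its receptor Il1rl1, and Tnf. The genes were taken by name, with earlier results of these data known. Every probe set that the platform annotation gives to one of them alone was used. Of the 10 genes, 9 had at least 1 such probe set, 15 in all, out of 18193 genes on the array with a probe set of their own. Il1rl1 is not analysed here, since no probe set is annotated to it. Both subgroups were mesenchymal stromal cells grown from the groin adipose tissue of C57BL/6 mice, kept in low sugar DMEM with fetal bovine serum. They were split by flow cytometry on CD73, the surface enzyme that releases adenosine from AMP, cultured further and collected at passage 5. Each subgroup had 3 Affymetrix arrays, and no genotype or treatment differed between them. The labels do not say how many mice or cultures stand behind the arrays, and p-values therefore rest on the spread among these arrays alone, which may be technical.

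Cytokines of the IL-6 family bind a private receptor chain and the shared signal chain gp130, the product of Il6st, which activates the kinases JAK1 and JAK2 and the transcription factor STAT3. IL-6 drives acute-phase and immune responses, LIF acts on stem cells and tissue remodelling, and IL-11 is known from stromal and fibrotic tissue. Colony-stimulating factors keep and mature myeloid cells, with M-CSF (Csf1) acting on macrophages, GM-CSF (Csf2) on granulocytes, macrophages and dendritic cells, and G-CSF (Csf3) on neutrophils. IL-33 is a nuclear alarmin that is released from damaged cells and read by ST2 (Il1rl1), whereas the product of Il1rn blocks the IL-1 receptor without signalling. Cultured stromal cells are a known source of IL-6 and M-CSF.

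The deposited values were log2 signals made with RMA, and array medians lay between 5.28 and 5.37. Across probe sets, which are not independent replicates, 2 arrays from one subgroup had a rounded r of 0.997 to 0.998. For 2 arrays from opposite subgroups it was 0.993. All 9 measured stromal markers lay above background, among them Vim, an intermediate filament of mesenchymal cells, at a mean of 13.60 in the CD73+ and 13.43 in the CD73- subgroup. RMA values carry no detection call. A probe set was therefore described as near background where its mean in both subgroups was at or under 5.88, the 90th percentile over 89 probe sets of 49 genes restricted to other tissues such as liver, retina and testis. By this limit 56.3% of 45037 probe sets lay near background. Single panel probe sets read up to 8.33, above those of Lif, Csf2 and Il1rn, and 1 of the 89 was called by limma. A signal above the limit therefore does not by itself show that the transcript was present. Poly-A controls, bacterial transcripts normally added before labelling, were lower by 0.93 on the log2 scale in CD73+ arrays. Scaling each array to them moved the median difference of all probe sets from -0.000187 to 0.93, with 44707 probe sets higher and 33 lower. The scaling moves all probe sets of an array by the same amount, those near background included. A rise under it, where given below, is therefore shared by nearly all probe sets and not particular to a gene. Directions below are those of the deposited scale, relative to the typical probe set.

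Il1rn and Il6 were higher and Csf2 and Lif lower in the CD73+ subgroup on the deposited scale, while after scaling to the poly-A controls the last 2 were higher as well. Of the 15 probe sets, 6 were higher and 3 lower in CD73+ AD-MSCs (limma, adjusted p under 0.05), against 9.79% higher, 9.11% lower and 18.9% in either direction among all probe sets. Since the genes were chosen with earlier results of these data known, such shares are descriptions and give no support. Values of the subgroups did not overlap for 13 of the 15, against 34.9% of all probe sets. Above the background limit they did not overlap for 8 of 9 here and for 11974 of all 19694 probe sets. Near background the counts were 5 of 6 here and 3747 of all 25343. Read by gene from the brightest probe set, Il6, Csf3, Il1rn and Il33 were higher and Lif and Csf2 lower, which is 6 of 9 genes, against 10.1% higher, 12.6% lower and 22.8% in either direction among all genes. Above the background limit 37% of all probe sets passed, against 5 of 9 here. Near background 4.81% of all probe sets passed, against 4 of 6 here, and the sizes of those differences are uncertain because such signals hold little of the transcript. Fewer cells that make a transcript and less of it per cell cannot be told apart in these bulk samples.

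**Figure D1:**
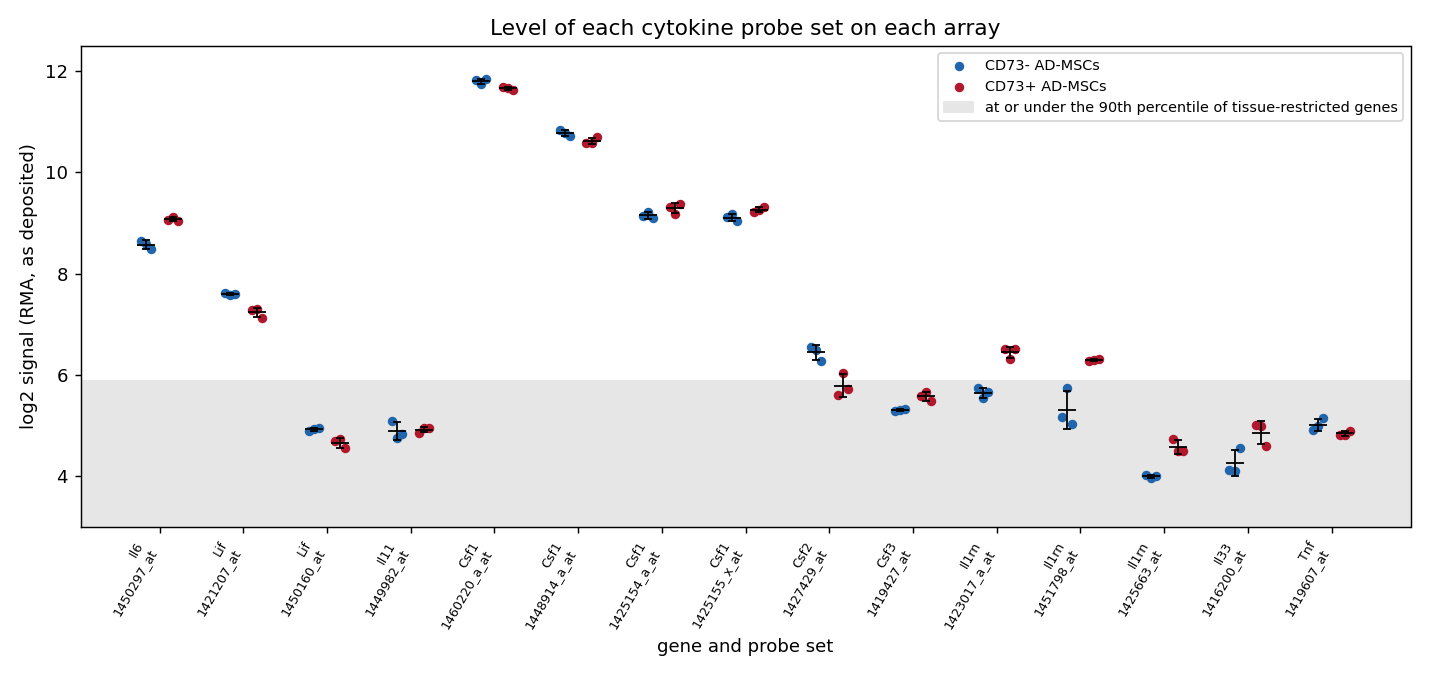
Log2 signal (vertical axis, RMA, as deposited) of each of the 15 cytokine probe sets on each array, with red points for the 3 CD73+ and blue points for the 3 CD73- arrays, and black bars for the mean and SD. The grey band ends at 5.88, the background limit; Csf1 lies between 9 and 12 in both subgroups, and Il6 and the upper Lif probe set lie clear of the band with no overlap between subgroups, in opposite directions on this scale but both higher in CD73+ after the poly-A scaling.

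Il6, the founding cytokine of its family, was read by 1 probe set (1450297_at). Its log2 signal was 9.06, 9.12 and 9.04 on the CD73+ arrays and 8.65, 8.59 and 8.49 on the CD73- arrays. Every CD73+ array lay above every CD73- array, and the spread within each subgroup was small beside the gap. CD73+ AD-MSCs averaged 9.07 ± 0.041 (SD, n = 3) and CD73- AD-MSCs 8.58 ± 0.081 (SD, n = 3), a difference of 0.50 on the log2 scale (standard error, SE, 0.064, limma adjusted p = 0.00196) or 1.41-fold. This signal stood above that of 86.5% of all probe sets. The call held without any 1 array, with a limma adjusted p of at most 0.0117.

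Lif, which signals through its own receptor chain and gp130, went the other way on the deposited scale and was higher, by 0.57, after scaling to the poly-A controls. On the brighter of its 2 probe sets (1421207_at) the CD73+ arrays read 7.27, 7.31 and 7.13 and the CD73- arrays 7.61, 7.59 and 7.59. The CD73- arrays lay close together and above all CD73+ arrays. CD73- AD-MSCs averaged 7.60 ± 0.014 (SD, n = 3) and CD73+ AD-MSCs 7.24 ± 0.093 (SD, n = 3), a difference of -0.36 (SE 0.065, limma adjusted p = 0.00778), so that it was 1.28-fold higher in CD73- cells. The second probe set (1450160_at), near background and made from the same source sequence, read 4.69, 4.74 and 4.55 in CD73+ and 4.89, 4.93 and 4.95 in CD73- AD-MSCs. Its difference of -0.27 (limma adjusted p = 0.0308) had the same sign. That call was lost on leaving out any 1 array except CD73+ replicate 2 (limma adjusted p between 0.0646 and 0.0942).

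Il11 showed no difference beyond the spread. Its probe set (1449982_at) read 4.85, 4.94 and 4.96 in CD73+ and 5.09, 4.74 and 4.83 in CD73- AD-MSCs, near background throughout. The subgroups overlapped, with the highest and the lowest value both on CD73- arrays. The difference was 0.032 (SE 0.094, limma adjusted p = 0.871). At this level a difference in Il11 transcript could not be read well.

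The stretches before the transcription start of Il6, Lif and Il1rn are shown because these genes passed above background and moved in both directions on the deposited scale and because each held at least 1 match to the motifs searched, whereas the stretch of Csf2 held 0. Each is the 250 bases upstream of a RefSeq start on GRCm38.p6, printed 5′ to 3′ on the strand of the gene, and capitals mark matches on either strand to AP-1 (TGANTCA), to the CCAAT box or to the NF-kappaB motif, none of which overlap here. For Il1rn, with 3 listed starts, the stretch of the first is printed, the only one of the 3 with a match.
Il6, chr5:30012864-30013113, plus strand: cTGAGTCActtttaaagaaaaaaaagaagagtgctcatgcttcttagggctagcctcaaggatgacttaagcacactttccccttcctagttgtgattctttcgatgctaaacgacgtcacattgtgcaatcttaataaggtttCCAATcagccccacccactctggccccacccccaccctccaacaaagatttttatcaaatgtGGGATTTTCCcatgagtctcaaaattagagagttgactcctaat
Lif, chr11:4257318-4257567, plus strand: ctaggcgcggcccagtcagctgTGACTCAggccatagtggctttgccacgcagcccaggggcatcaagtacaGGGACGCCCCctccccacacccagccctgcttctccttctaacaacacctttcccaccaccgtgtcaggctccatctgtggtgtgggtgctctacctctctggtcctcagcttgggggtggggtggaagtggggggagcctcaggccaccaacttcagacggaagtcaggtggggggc
Il1rn, chr2:24336610-24336859, plus strand: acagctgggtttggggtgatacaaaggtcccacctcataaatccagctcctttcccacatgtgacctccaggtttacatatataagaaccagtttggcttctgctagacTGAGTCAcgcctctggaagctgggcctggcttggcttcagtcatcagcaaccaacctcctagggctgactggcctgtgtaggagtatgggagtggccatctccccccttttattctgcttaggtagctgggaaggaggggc

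AP-1 is bound by Fos and Jun proteins and the NF-kappaB motif by the factors that answer IL-1 and TNF. Il6 and Lif, which differed in opposite directions on the deposited scale, each held both motifs. In Il6 the AP-1 match began 249 bases, CCAAT 106 bases and the NF-kappaB match 44 bases before the start. In Lif the AP-1 match began 228 bases and the NF-kappaB match 178 bases before the start. The Il1rn stretch held AP-1 alone, 141 bases before the start. Among 32851 stretches of this length, 6.75% held AP-1, 7.25% the NF-kappaB motif and 33.8% CCAAT. The same search covered 14 stretches of 9 of the 10 genes, Csf3 having none in the table. AP-1 occurred in those of Il6, Lif, Il11 and Il1rn and the NF-kappaB motif in those of Il6, Lif and Csf1. No stretch of these genes held TTCNNNGAA, the STAT motif, or TGACGTCA, a cyclic AMP response element, which 7.02% and 1.55% of all stretches held, and TATAAA (12.4% of all) occurred in those of Tnf and Il33. Such matches are descriptions of letters and not of bound sites.

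Csf1, the macrophage growth factor, was read far above background by 4 probe sets, 2 of which had negative and 2 positive differences on the deposited scale, none of them past the threshold by limma, while all 4 were higher after the poly-A scaling. The brightest (1460220_a_at) read 11.68, 11.67 and 11.63 in CD73+ and 11.82, 11.75 and 11.84 in CD73- AD-MSCs. Its difference was -0.14 (SE 0.056, limma adjusted p = 0.133). The next (1448914_a_at) read 10.58, 10.59 and 10.70 against 10.84, 10.78 and 10.73, a difference of -0.16 (limma adjusted p = 0.13). On both, the CD73- arrays lay above the CD73+ arrays with no overlap. The other pair went up. Probe set 1425154_a_at read 9.32, 9.18 and 9.37 in CD73+ and 9.14, 9.23 and 9.09 in CD73- AD-MSCs, a difference of 0.14 (limma adjusted p = 0.253) with overlap. Probe set 1425155_x_at read 9.22, 9.26 and 9.31 against 9.12, 9.17 and 9.03, a difference of 0.16 (limma adjusted p = 0.132) without overlap.

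The first pair was designed from one source sequence of Csf1 and the second from another. Within each array the mean of the second pair minus that of the first was -1.86, -1.91 and -1.82 in CD73+ and -2.20, -2.07 and -2.22 in CD73- AD-MSCs. This contrast, free of the scale of an array, differed by 0.30 between subgroups (exact permutation test, two-sided, p = 0.1, the smallest that 3 against 3 arrays allow). It was chosen after the values and directions of the pairs were seen, so that this p-value gives it no support. Averaged over its 4 probe sets Csf1 had a difference of -0.0021 (SE 0.047, limma adjusted p = 0.984). With a trend and a robust prior in limma the first pair passed lower (adjusted p = 0.00394 and 0.01) and 1425155_x_at higher (adjusted p = 0.0252), and with dim probe sets left out the same 3 passed (limma adjusted p 0.0379, 0.0434 and 0.0433).

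Csf2, the granulocyte and macrophage factor, had the largest fall of these genes on the deposited scale and was higher, by 0.27, after scaling to the poly-A controls. Its probe set (1427429_at) read 5.61, 6.04 and 5.71 in CD73+ and 6.56, 6.50 and 6.27 in CD73- AD-MSCs. All CD73- arrays lay above all CD73+ arrays, and CD73+ replicate 2 came closest to them. Mean signals were 6.44 ± 0.15 (SD, n = 3) for CD73- and 5.79 ± 0.22 (SD, n = 3) for CD73+ AD-MSCs, a difference of -0.65 (SE 0.13, limma adjusted p = 0.0103), or 1.57-fold higher in CD73- cells. The CD73+ mean lay under the background limit and the CD73- mean above it, so that the size of the fall is uncertain. It passed without any 1 array (limma adjusted p at most 0.0435) and did not pass by the methods' t-test applied to each probe set (adjusted p = 0.0744). The methods name that kind of test for differences between groups and none for the arrays.

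Csf3, the neutrophil factor, read 5.58, 5.67 and 5.48 in CD73+ and 5.29, 5.30 and 5.32 in CD73- AD-MSCs on its probe set (1419427_at), near background. The subgroups did not overlap. The difference was 0.27 (SE 0.064, limma adjusted p = 0.0234), or 1.21-fold. The call was lost when replicate 1 or replicate 2 of either subgroup was left out (limma adjusted p between 0.0717 and 0.0853).

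Il1rn, the secreted or intracellular antagonist of the IL-1 receptor, rose on all 3 of its probe sets and had the largest rise of these genes. The brightest (1423017_a_at) read 6.50, 6.32 and 6.50 in CD73+ and 5.74, 5.54 and 5.66 in CD73- AD-MSCs. The level was 6.44 ± 0.10 (SD, n = 3) against 5.65 ± 0.10 (SD, n = 3), a difference of 0.80 (SE 0.080, limma adjusted p = 0.000786) or 1.74-fold. The gap was several times the SDs, and the CD73- mean lay under the background limit, so that the size of the rise is uncertain. Probe set 1451798_at read 6.27, 6.30 and 6.31 in CD73+ and 5.17, 5.74 and 5.02 in CD73- AD-MSCs. CD73- replicate 2 stood apart from the other CD73- arrays there, still below every CD73+ array. The difference was 0.98 (SE 0.17, limma adjusted p = 0.00652), and without that array it was 1.20. Near background, probe set 1425663_at read 4.73, 4.50 and 4.50 against 4.02, 3.96 and 4.01, a difference of 0.58 (limma adjusted p = 0.00224). Averaged over the 3 probe sets, 2 of which were made from the same source sequence, Il1rn rose by 0.79 (SE 0.063, limma adjusted p = 0.000199). No single array ended any of the 3 calls, and the limma adjusted p stayed at or under 0.0299. By the methods' t-test applied to each probe set, 1451798_at did not pass (adjusted p = 0.0636).

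Il33, the alarmin, read 5.01, 4.98 and 4.59 in CD73+ and 4.13, 4.10 and 4.55 in CD73- AD-MSCs (1416200_at), near background. CD73+ replicate 3 and CD73- replicate 3 nearly met, and the other arrays lay well apart. The difference was 0.60 (SE 0.15, limma adjusted p = 0.0319), or 1.52-fold. The call was lost when replicate 1 or replicate 2 of either subgroup was left out (limma adjusted p between 0.102 and 0.108).

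Tnf, the macrophage cytokine, lay near background on its probe set (1419607_at), at 4.81, 4.82 and 4.90 in CD73+ and 4.90, 4.997 and 5.14 in CD73- AD-MSCs. The closest arrays of the subgroups differed by less than the SD of the CD73- arrays. The difference was -0.17 (SE 0.075, limma adjusted p = 0.171).

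**Figure D2:**
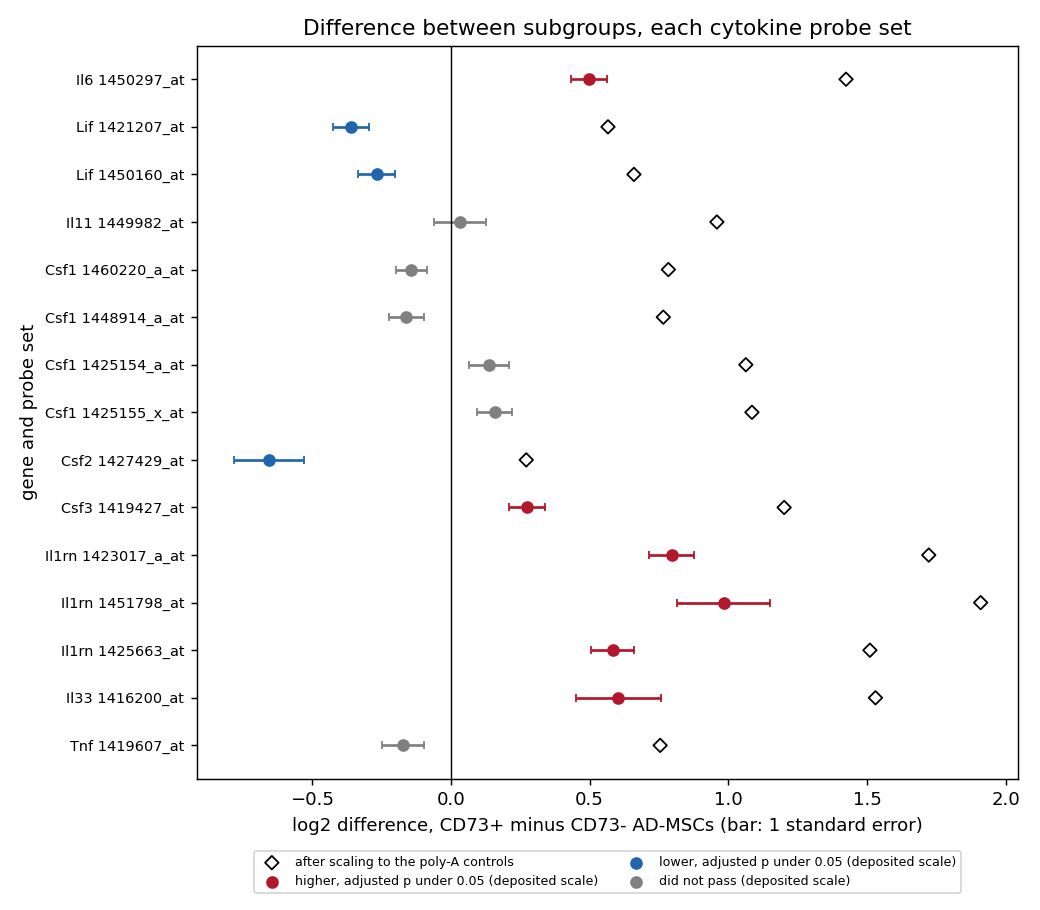
Log2 difference (horizontal axis), CD73+ minus CD73- AD-MSCs, of each cytokine probe set, with filled points and bars for the value on the deposited scale and 1 standard error from limma, and open diamonds for the value after scaling each array to its poly-A controls. On the deposited scale they run from -0.65 for Csf2 to 0.98 for Il1rn; after the scaling all 15 lie above 0, and Csf2 stays lowest and Il1rn highest.

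Genes that receive, pass on or restrain the IL-6 family signal were more often higher than lower in CD73+ AD-MSCs. Of 16 measured receptors and JAK-STAT3 signalling genes, 5 were higher and 0 lower by limma (10.1% and 12.6% of all genes), with a median log2 difference of 0.17 against -0.018 over all genes. Among genes above background, 16.6% were higher and 21.2% lower. Those called higher in the list were the receptor chains Lifr, Il6ra and Osmr and the inhibitors Socs3 and Cish, the last by 0.37. The kinase genes of the list did not pass. Socs3, the feedback inhibitor induced by STAT3, was higher by 1.24 (SE 0.078, limma adjusted p = 0.000166) and by at least 1.08 on its other probe sets. Lifr, the receptor chain for LIF, rose by 0.85, and by 0.56 on a second probe set, while another, near background, did not pass. Il6ra, the IL-6 receptor chain, rose by 0.50 on the brighter probe set and had 0.021 on the other, which did not pass. Osmr, the oncostatin M receptor chain, rose by 0.43 and by 0.63 on a second probe set. On the brightest probe set of Il6st, the shared chain gp130, the difference was -0.13 (limma adjusted p = 0.155), and 1 of its 4 probe sets was lower, by 0.54, on the deposited scale only. Stat3 had 0.19 on its brightest probe set (limma adjusted p = 0.0786). It rose by 0.52 on a second and by 0.60 and 0.26 on others near background. Of the 4 measured ligands of the family besides Il6, Lif and Il11, 0 passed by limma.

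Of 20 genes listed as known STAT3 targets, 14 were higher and 2 lower by limma on the deposited scale (10.1% and 12.6% of all genes, 16.6% and 21.2% of those above background), with a median of 0.45, and after scaling to the poly-A controls all 20 were higher. Saa3 and Lcn2, acute-phase products, rose by 2.35 and 1.93, and Cebpd, a transcription factor of the acute-phase response, by 1.30. Myc, the growth regulator, fell by 0.50 and Pim1, a kinase, by 0.20 on the deposited scale, and the Pim1 call was lost on leaving out any 1 array (limma adjusted p between 0.0799 and 0.131). The other Pim1 probe set had 0.035 and did not pass. Osmr and Socs3 stand in both lists. Many of these genes also answer other signals, and Saa3 and Lcn2 were known to rise in these data when the list was compiled.

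In the colony-stimulating factor list, 13 genes other than Csf1, Csf2 and Csf3 were measured. On the brightest probe set 1 was higher and 1 lower by limma, a smaller share than the 22.8% called among all genes. Csf1r, the receptor for M-CSF, rose by 0.49 to 6.87 (limma adjusted p = 0.00777) and by 0.31 on a second probe set, while the last had 0.094 and did not pass. Csf2ra, the GM-CSF receptor chain, near background, fell by 0.51 on 1 of its 2 probe sets on the deposited scale and was higher by 0.41 after scaling to the poly-A controls. Kitl had 0.034 on its brightest probe set and did not pass there. On a pair of dimmer ones, above background, it fell by 0.72 and 0.24 on the deposited scale (limma adjusted p = 0.000724 and 0.0302). The last Kitl probe set had 0.10 and did not pass. In this list 11 of 16 genes lay near background, where 4.81% of all probe sets passed, so that the 22.8% is not a share at like level.

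Besides Il1rn and Il33, 27 genes of the IL-1 and IL-33 family and its signalling were measured. On the brightest probe set 2 were higher and 2 lower by limma, with a median of -0.046. That is a smaller share than the 22.8% called in either direction among all genes, which is not a share at like level. Of the 29 genes of this list, Il1rn and Il33 included, 13 lay near background, where 4.81% of all probe sets passed. Among all genes above background, 16.6% were higher and 21.2% lower. Il18, an inflammasome-processed cytokine, rose by 0.58 from 6.75 ± 0.11 (SD, n = 3) to 7.33 ± 0.038 (SD, n = 3) (limma adjusted p = 0.00175). Il1r1, the receptor that the Il1rn product blocks, rose by 0.28, a call that was lost when replicate 1 or replicate 2 of either subgroup was left out (limma adjusted p between 0.053 and 0.0683). Il1rap, the accessory chain shared by the IL-1 and IL-33 receptors, had a brightest probe set at 0.15 (limma adjusted p = 0.244) and rose by 0.49 and 0.51 on a pair of dimmer ones. Traf6 had -0.19 on its brightest probe set (limma adjusted p = 0.213). On the deposited scale it fell by 0.62 on a dimmer one and by 0.48 on another, near background. Map3k7 fell by 0.39 on a dimmer probe set and rose by 0.28 on another. Irak1 fell by 0.25 on a dimmer one, and Il18rap, near background there, rose by 0.50. Tollip, an inhibitor of IL-1 receptor signalling, fell by 0.41 and Tab2, an adaptor of the TAK1 kinase, by 0.20 on the deposited scale, whereas both turned higher under the poly-A scaling, and the Tab2 call was lost on leaving out any 1 array (limma adjusted p between 0.0864 and 0.137).

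Of 20 measured genes of TNF reception and signalling besides Tnf, 6 were higher and 6 lower on the deposited scale (10.1% and 12.6% of all genes, 16.6% and 21.2% of those above background), and all turned higher under the poly-A scaling. Tnfaip8, a regulator of cell death, rose by 0.62, Tnfaip6, a hyaluronan-binding anti-inflammatory protein near background here, by 0.50, and Tnfrsf1a, the main TNF receptor, by 0.42 to 9.91 ± 0.031 (SD, n = 3) (limma adjusted p = 0.00216). Birc3, a ubiquitin ligase that blocks cell death, fell by 0.56, Traf1, an adaptor near background, by 0.50 and Tnfaip2 by 0.41. At least 1 other probe set of Tnfaip8, Birc3, Traf1 and Tnfaip2 did not pass, and the Traf1 call ended without CD73- replicate 1 (limma adjusted p = 0.0619).

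**Figure D3:**
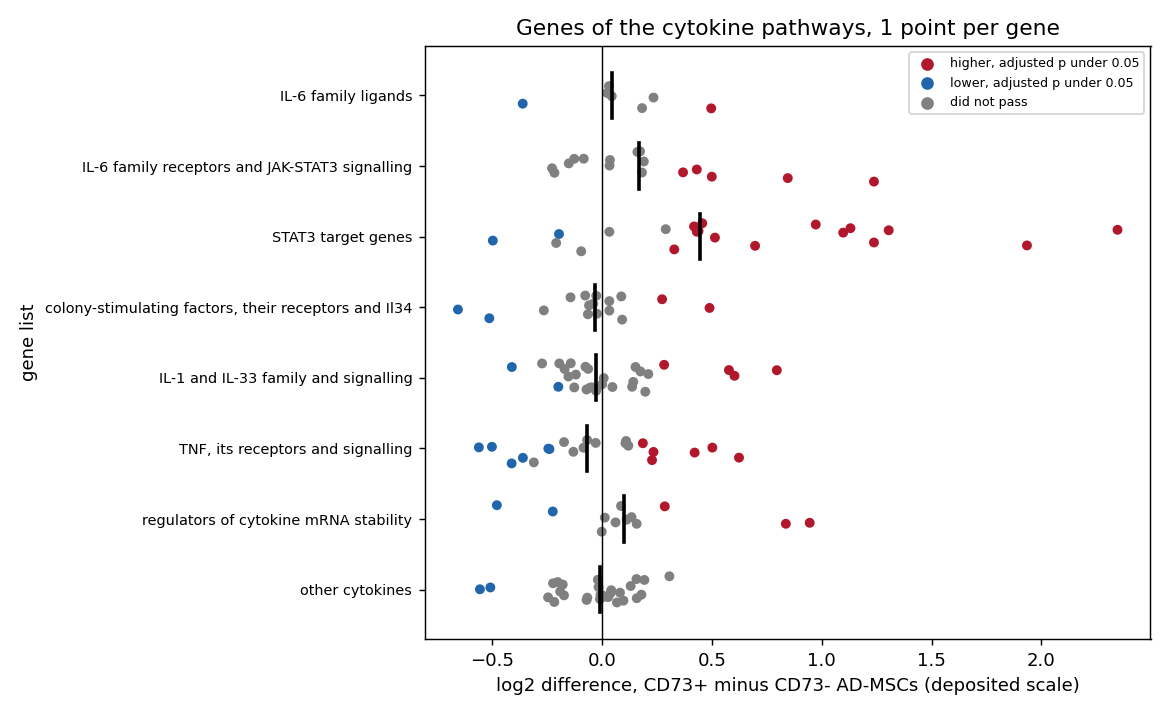
Log2 difference (horizontal axis, deposited scale, CD73+ minus CD73-) for the measured genes of 8 cytokine lists, each drawn as 1 point from the brightest probe set, with a black bar at the median. Red points were called higher and blue points lower by limma; the STAT3 targets lie mostly to the right, around 0.45, and blue points turn to the right after scaling to the poly-A controls.

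Markers of cell types that make or answer these cytokines were mostly near background. Of 10 macrophage and monocyte markers 8 lay there, among them the defining Ptprc, Adgre1, Itgam and Cd68, while Csf1r and Cd14, a lipopolysaccharide co-receptor, were above it and higher in CD73+ AD-MSCs, Cd14 by 0.50. The mean log2 level of this list was 4.60 to 4.63 on CD73+ and 4.46 to 4.54 on CD73- arrays. All 9 mast cell markers lay near background, with means of 3.82 to 3.93 and 3.85 to 3.90, and the brightest, Hdc, had 5.28 and 5.32. Of 8 lymphoid markers 6 lay near background, with list means of 4.40 to 4.50 and 4.39 to 4.55, and Gata3, which stromal cells can also express, fell by 0.46 on the deposited scale. Of 8 endothelial, 5 adipocyte and 8 mesothelial or epithelial markers, 7, 4 and 7 lay near background. List means were 4.18 to 4.25 and 4.13 to 4.26 for endothelial, 4.09 to 4.26 and 4.15 to 4.26 for adipocyte and 4.46 to 4.62 and 4.31 to 4.44 for mesothelial or epithelial markers on CD73+ and CD73- arrays. Their brightest genes were Kdr at 6.13 and 6.14, Retn at 5.84 and 6.08 and Epcam at 6.55 and 6.30 in CD73+ and CD73- AD-MSCs, and Msln, near background, rose by 0.61. Of the 9 stromal markers 5 were higher, Pdgfrb by 0.36, Col1a2 by 0.55, Pdgfra by 0.64, Thy1 by 0.65 and Col1a1 by 0.85, and the mean level was 10.68 to 10.69 against 10.26 to 10.30. The part of these levels in the cytokine differences was not tested.

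**Figure D4:**
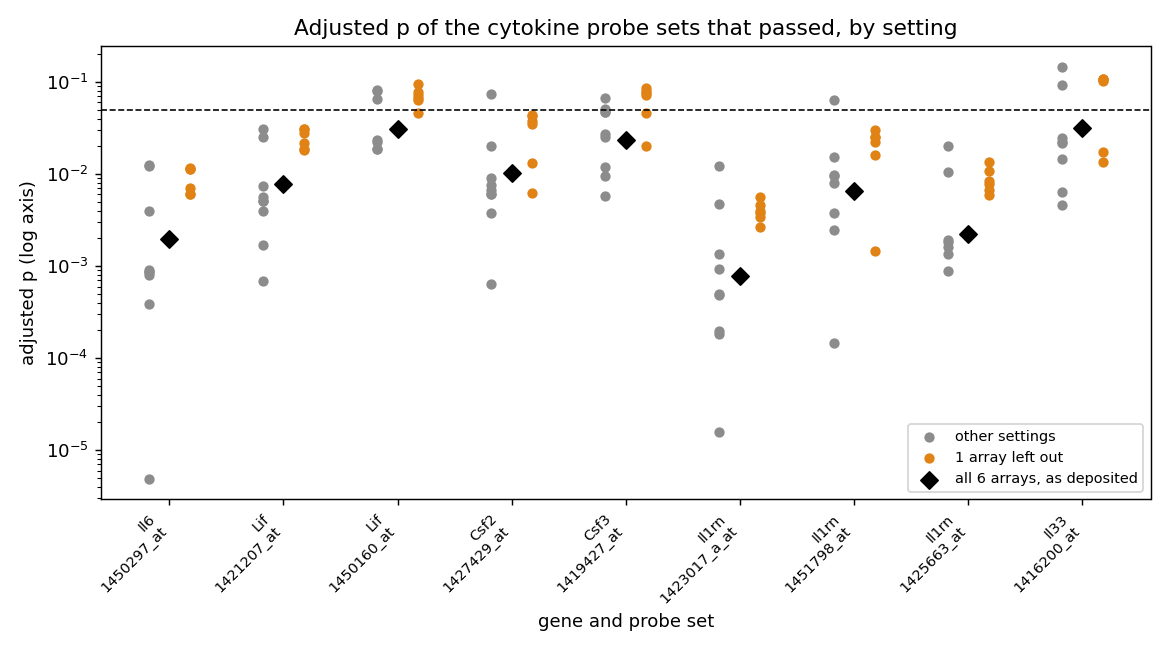
Adjusted p (vertical log axis) of the 9 cytokine probe sets that passed, for all 6 arrays as deposited (black), with 1 array left out (orange, limma) and under the other settings except the scaling to poly-A controls (grey), with a dashed line at 0.05. Il6, the brighter Lif probe set and 2 of the Il1rn probe sets stay under the line in every setting drawn, whereas the dim Lif probe set, Csf3 and Il33 cross it when 1 array is left out.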

How the data were processed

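Log2 values of 45101 probe sets on 6 Affymetrix mouse arrays were used as deposited. The submitters' processing notes name RMA, without a version, which removes a shift common to most transcripts and can compress small ratios. After 64 control probe sets were set aside, lmFit and eBayes of limma 3.58.1 (R 4.3.3) were run on 45037 probe sets, without a replicate block or filter. P-values were adjusted by Benjamini-Hochberg over all probe sets fitted, and 0.05 was the threshold. A single gene symbol was given to 34945 probe sets and several to 932, by platform annotation. Genes of the lists were read from the brightest probe set, by mean over the 6 arrays.

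Members and lists were chosen with earlier results of these data known. The lists were compiled by hand. Named are all members, up to 3 genes with the largest rise and 3 with the largest fall per list among those that passed, and the brightest and the passing markers. Osmr, Il6st, Cish, Stat3, Il1r1 and Il1rap were named for their role, after their values were seen. Kitl, Traf6, Map3k7, Irak1 and Il18rap were named for their dimmer probe sets, likewise after their values were seen, and no alternative is given for them. Of 56 genes listed for the background limit 49 were measured. Scripts were tested on simulated data. The number of arrays limits the precision. Alternatives were quantile normalization, cyclic loess, median centring, a replicate block, scaling to 12 poly-A control probe sets, a filter at the median level, array weights, a trend with a robust prior, the methods' t-test applied to each probe set, leaving out each array and averaging a gene's probe sets, which for single genes was added after seeing the data, as were all alternatives for the named list genes. Upstream sequences are from RefSeq (GRCm38.p6). Python 3.11.15 and matplotlib 3.10.9 made the figures.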

Additional observations from a re-analysis of the deposited data

How the results depend on the processing

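Scaling to the poly-A controls changed the picture most, with 15 of the 15 cytokine probe sets higher and 0 lower, 44707 probe sets and 18048 genes higher and 33 and 19 lower, 16 receptor and signalling genes higher, and 0 STAT3 targets lower. It turned both Lif probe sets to 0.57 and 0.66, the brighter Csf1 pair to 0.78 and 0.77, Csf2 to 0.27, Tnf to 0.75, Il6st to 0.80, Myc to 0.43, Pim1 to 0.73, Csf2ra to 0.41, Tollip to 0.52, Tab2 to 0.73, Birc3 to 0.37, Traf1 to 0.43, Tnfaip2 to 0.52, Arid5a to 0.45, Tial1 to 0.70, Tslp to 0.37 and Il15 to 0.42. Il11, which did not pass, had -0.00024 after median centring and between -0.038 and 0.13 with 1 array left out, lowest without CD73- replicate 2. Apart from that scaling, no called cytokine probe set changed sign, and the call held in 73 of 86 values of those higher and in 34 of 43 values of those lower. The methods' t-test gave 4 higher and 1 lower cytokine probe sets, losing Il1rn 1451798_at, Il33, Csf2 and the dim Lif probe set (adjusted p = 0.0636, 0.147, 0.0744 and 0.0648). Of the receptor and signalling genes 1 was lower with array weights, the methods' t-test, a trend with a robust prior or averaged probe sets, and 2 with dim probe sets left out. Of the STAT3 targets 1 was lower with cyclic loess, quantile normalization, a replicate block or averaged probe sets.

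With the replicate block 2713 probe sets and 1477 genes were lower, and the calls of the dim Lif probe set, Csf3 and Il33 ended (limma adjusted p 0.0828, 0.0679 and 0.0922), with 4 cytokine probe sets higher and 2 lower. Whether the replicate numbers pair the arrays is not known. Deviations of same-numbered arrays correlated with r of -0.138, 0.028 and -0.136 across probe sets. For arrays of different number r ran from -0.063 to 0.171, and with 3 arrays per subgroup such values cannot settle it. With 1 array left out, 4 to 6 cytokine probe sets were higher and 2 to 3 lower, 2794 to 4199 probe sets higher and 2525 to 3907 lower, 1170 to 1631 genes higher and 1410 to 2142 lower, 5 receptor and signalling genes higher and 0 lower, and 13 to 14 STAT3 targets higher and 1 lower. The lowest counts over all probe sets came without CD73+ replicate 1. Without replicate 1 or replicate 2 of either subgroup, 3 genes of the TNF list, 2 of the IL-1 and IL-33 list and 1 of the colony-stimulating factor list were higher, against 6, 4 and 2 with all arrays. With 5.88 replaced by the panel's 95th percentile (6.38) or the median of all probe sets (5.33), 7 and 5 of the 15 probe sets lay near background, against 6. The causes of these changes were not tested.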

Other observations

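Of 12 measured genes that control the stability of cytokine messages, 3 were higher and 2 lower by limma on the deposited scale, and all turned higher under the poly-A scaling. None of the 12 lay near background, and among all genes above background 16.6% were higher and 21.2% lower, so that the count is near the share over all such genes. Zfp36, which encodes tristetraprolin, a protein that leads AU-rich cytokine messages to decay, rose by 0.95 from 7.42 to 8.37 (SE 0.059, limma adjusted p = 0.000163). Zc3h12a, which encodes Regnase-1, an RNase known to cleave the Il6 message, rose by 0.84 from 5.49 to 6.33, while its other probe set, near background, did not pass. Zfp36l1, a relative of Zfp36, rose by 0.29 and by 0.40 on a second probe set, and the former call ended without CD73+ replicate 2 (limma adjusted p = 0.051). Arid5a, a protein known to stabilise the Il6 message, fell by 0.48 (limma adjusted p = 0.00703). Tial1, an AU-rich element binding protein, fell by 0.22 on the brightest of its probe sets but rose by 0.30 on another, and the former call was lost when replicate 1 or replicate 2 of either subgroup was left out (limma adjusted p between 0.0684 and 0.0968).

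Of 29 other cytokines measured, 24 lay near background, 0 were higher and 2 lower by limma on the deposited scale, both turning higher under the poly-A scaling. Among all genes 10.1% were higher and 12.6% lower. Tslp, an alarmin cytokine like Il33, fell by 0.55 from 7.72 to 7.17 (SE 0.097, limma adjusted p = 0.00698), and Il15, a growth factor for lymphocytes, by 0.51 from 6.32 to 5.81, a call that was lost on leaving out any 1 array except CD73+ replicate 1 (limma adjusted p between 0.0592 and 0.128).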
